A study of Canis lupus familiaris with 20 samples.

Results

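SLC5A3 and MSX2 are 2 genes whose RNA was lower in canine mammary cancer cells sorted out of a co-culture with macrophages than in the same cancer cells grown alone. They were selected on those measured ratios in the cancer cells, so the cancer cell values are given here as a description, and only the macrophage values, which the choice did not use, were tested. For each, 1 probe was found through the RefSeq accession printed on the array, among 1037 gene symbols matched, so no second probe could be compared. Probes without a symbol kept the array's own identifier. The 38230 distinct symbols and identifiers are counted as genes here, although several identifiers can belong to 1 gene. The 5 dog cell lines were CMT-U27, from a simple carcinoma, CMT-U309, from a spindle-cell tumour, P114, from an anaplastic cancer, and the adenocarcinoma lines CMT-W1 and CMT-W2. All were grown in the same serum-containing medium, alone (mono-culture) or under CD64-positive blood monocytes that become partly macrophage-like during culture. After at least 72 h, the co-cultures were detached with trypsin and sorted into stained cancer cells and unstained macrophages. The sort used the orange dye CMTMR, loaded into the cancer cells beforehand. The macrophages were set against monocytes kept alone. The mono-cultures were instead washed and scraped, and this difference in handling cannot be told apart from co-culture in any of the ratios. Each RNA pair, co-culture against mono-culture of one cell type, was hybridised to 2 two-colour Agilent arrays with the dyes exchanged, which gave 20 arrays, 10 dye-swap pairs and 5 pairs for each cell type. A dye-swap pair is counted as 1 replicate. Nothing in the labels says whether the macrophage mono-cultures were separate cultures or came from separate dogs, so the p-values measure only the spread between these pairs, and a change in the number of a kind of cell in a sorted tube cannot be told apart from a change of RNA per cell.

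SLC5A3 encodes the sodium-coupled myo-inositol transporter. Myo-inositol is the building block of phosphoinositide lipids and also a compatible osmolyte, which cells gather when their surroundings become hypertonic, and the transporter gene is a known target of the tonicity-responsive factor NFAT5. MSX2 encodes a homeobox transcription factor, mostly a repressor, that acts downstream of bone morphogenetic proteins in the skull, teeth, hair follicles and the developing mammary gland.

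The labelled cell types were checked against 13 matched macrophage markers out of a list of 21. In mono-culture the summed level of these markers was between 889765 and 1182060 in the macrophages, and between 2213 and 40117 in the cancer lines. The co-cultures did not keep that separation. All 13 markers rose in the sorted cancer cells, where 6.52% of all genes were called raised. All 13 fell in the sorted macrophages, where 28.1% of all genes were called lowered. These calls are at an adjusted p under 0.05 from limma and were not repeated with other scalings. The sorted cancer cells held 95.8% of the summed level of mono-cultured macrophages in CMT-U27, 18.1% in CMT-U309, 6.69% in P114, 1.90% in CMT-W1 and 13.1% in CMT-W2. In CMT-U27, 13 of 13 markers were higher in the tube labelled cancer cells than in the tube labelled macrophages, and in CMT-W2 10 of 13 were. In CMT-W1 it was 5 of 13, in P114 3 of 13 and in CMT-U309 0 of 12. The study's own check of the tubes after sorting, by cytometry and microscopy, is no part of these data. The ratios and gaps of SLC5A3 and MSX2 are therefore also given without CMT-U27 and CMT-W2, where most markers went against the labels. The 3 co-cultures kept were not free of macrophage marker signal. The sorted cancer cells of CMT-U309 held 18.1%, more than the 13.1% of CMT-W2. The cancer lines held 7 matched mesenchymal genes at a summed level of 21987 to 94690 in mono-culture. Of these, 3 of the 6 tested (CAV1, CAV2 and SERPINH1) rose in the sorted macrophages, where 21.2% of all genes were called raised, and 2 of 7 (CAV1 and PDGFRB) fell in the sorted cancer cells, where 6.94% of all genes were called lowered. The part of these marker changes in the ratios of SLC5A3 and MSX2 was not tested. Only 2 of 14 epithelial markers and 3 of 11 lymphocyte markers were matched, too few to describe those cells.

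SLC5A3 was lower in the co-cultured cancer cells of all 5 lines. The log2 ratio (co-culture / mono-culture) was -2.68 in CMT-U27, -2.78 in CMT-U309, -2.25 in P114, -1.21 in CMT-W1 and -1.94 in CMT-W2. CMT-W1 thus kept the largest share of its SLC5A3 signal, being lower by 2.31-fold, and CMT-U309 the smallest, being lower by 6.85-fold. The dye-swap arrays of the CMT-W1 cancer cells had the lowest correlation over all genes of any pair (r = 0.736). The mean over lines was -2.17 ± 0.64 (SD, n = 5). All 10 arrays were below 0 and 8 of 10 were lower by at least 3-fold. The dyes of a pair differed by 0.08 to 0.39 in log2 ratio, less than the lines did. Without CMT-U27 and CMT-W2 the mean was -2.08 ± 0.80 (SD, n = 3), and with normexp background correction and median centring it was -1.08 ± 0.42 (SD, n = 5). Across all genes, 6.94% were called lowered and 6.52% raised in the cancer cells by limma at an adjusted p under 0.05, and since SLC5A3 and MSX2 were chosen on this contrast nothing is read from these shares. They depend on the scaling: of the genes called, 48.5% were raised with the deposited ratios, 82.5% after normexp and loess and 88.6% after normexp and median centring.

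In the macrophages SLC5A3 went the other way. The log2 ratio was 0.25 in the CMT-U27 co-culture, 0.84 with CMT-U309, 1.71 with P114, 1.69 with CMT-W1 and 1.61 with CMT-W2. The 3 highest lay within 0.10 of each other, while macrophages from the CMT-U27 co-culture had hardly more SLC5A3 signal than those kept alone. SLC5A3 rose by 1.22 ± 0.65 (SD, n = 5) on the log2 scale, or 2.33-fold, with a limma standard error of 0.29 and an adjusted p of 0.011 over 24226 genes. It was higher on 10 of 10 macrophage arrays. Co-culture moved a large part of the macrophage transcriptome, with 21.2% of tested genes called raised and 28.1% called lowered, and 16.7% of tested genes had a higher mean ratio than SLC5A3. The CMT-U27 pair was the only macrophage pair scanned on the first of 2 days. Over the 4 pairs of the second day the mean was 1.46 ± 0.42 (SD, n = 4, adjusted p = 0.00812 from limma). Without CMT-U27 and CMT-W2 it was 1.41 ± 0.50 (SD, n = 3, adjusted p = 0.0429 from limma).

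**Figure D1:**
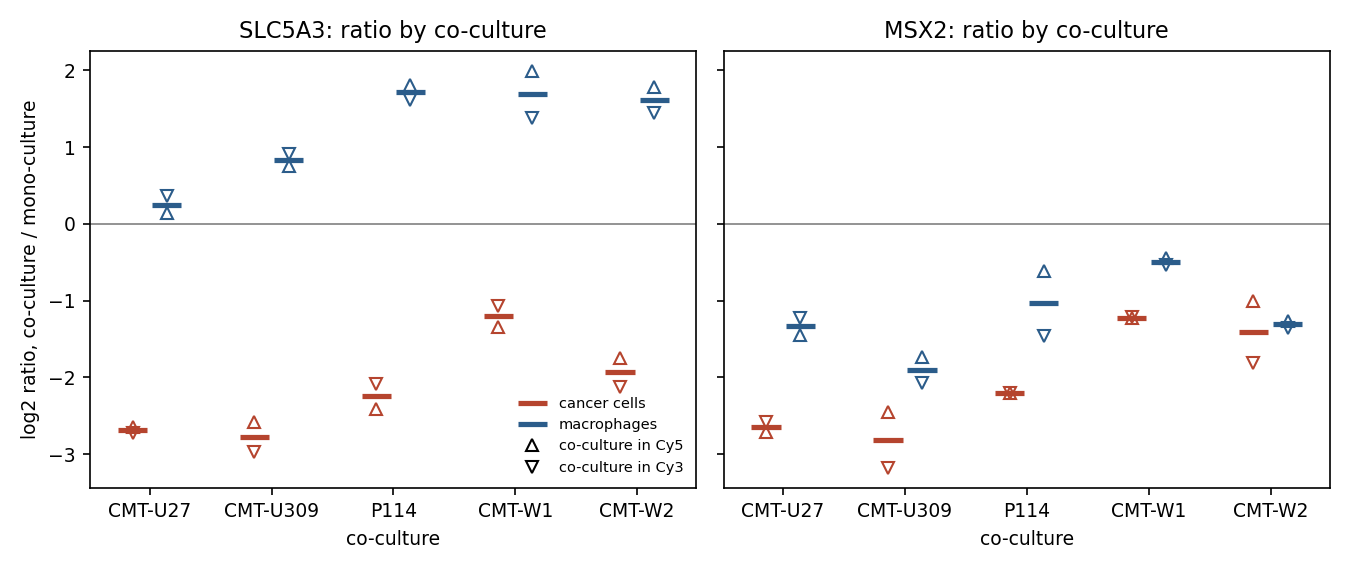
Log2 ratio (co-culture / mono-culture) for SLC5A3 (left) and MSX2 (right) in each of the 5 co-cultures, in cancer cells (red) and macrophages (blue). Triangles are single arrays, pointing up where the co-culture was in Cy5 and down where it was in Cy3, and bars are dye-swap means. SLC5A3 lies below 0 in every cancer line and above 0 in every macrophage co-culture, while MSX2 lies below 0 in all 10 pairs.

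MSX2 was also lower in the co-cultured cancer cells of all 5 lines. Its log2 ratio was -2.65 in CMT-U27, -2.81 in CMT-U309, -2.20 in P114, -1.22 in CMT-W1 and -1.41 in CMT-W2. The 2 adenocarcinoma lines had the smallest changes. The mean was -2.06 ± 0.72 (SD, n = 5), with all 10 arrays below 0 and 7 of 10 lower by at least 3-fold. The dyes differed by 0.0042 in P114 and 0.0034 in CMT-W1 but differed by 0.73 in CMT-U309 and by 0.81 in CMT-W2, where the array with the co-culture in Cy5 gave -1.003 and its partner -1.81. Without CMT-U27 and CMT-W2 the mean was -2.08 ± 0.80 (SD, n = 3), and with normexp and median centring it was -1.11 ± 0.44 (SD, n = 5).

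In the macrophages MSX2 fell as well, unlike SLC5A3. The log2 ratio was -1.33 with CMT-U27, -1.90 with CMT-U309, -1.04 with P114, -0.49 with CMT-W1 and -1.31 with CMT-W2. As in the cancer cells, CMT-U309 gave the lowest value and CMT-W1 the one nearest to 0. MSX2 fell by 1.21 on the log2 scale, with an SD of 0.51 over 5 co-cultures, a limma standard error of 0.26 and an adjusted p of 0.00712, which is 2.32-fold. It was lower on 10 of 10 arrays, although 28.1% of all genes tested were called lowered and 15.2% had a lower mean ratio. Over the 4 pairs of the second scan day the mean was -1.19 ± 0.59 (SD, n = 4, adjusted p = 0.0235 from limma). Without CMT-U27 and CMT-W2 it was -1.14 ± 0.71 (SD, n = 3) and no longer passed, with an adjusted p of 0.0924 from limma.

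The levels behind these ratios show how SLC5A3 was placed in the cultures. Levels are log2 processed signals after limma's Aquantile normalization, which evens out the average brightness of the arrays and leaves the ratio within each array as it was. They were averaged over the 2 arrays of a pair, and they can be compared between cultures but not between the 2 probes. Both probes were well above background in both channels of all 20 arrays and none was saturated. In cancer mono-culture SLC5A3 was at 10.68 in CMT-U27, 11.79 in CMT-W2, 11.96 in CMT-U309, 12.12 in P114 and 12.19 in CMT-W1. The baseline of CMT-U27 was therefore below the other 4, which lay within 0.41 of each other, less than the 0.86 by which the 2 arrays of CMT-U309 differed. In macrophage mono-culture the level was between 8.33 and 8.77, with a mean of 8.57 ± 0.16 (SD, n = 5).

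After co-culture the SLC5A3 levels of the sorted populations came together. In the sorted cancer cells they were 7.998 in CMT-U27, 9.18 in CMT-U309, 9.88 in P114, 10.99 in CMT-W1 and 9.85 in CMT-W2. In the sorted macrophages they were 8.58, 9.60, 10.26, 10.21 and 10.28 in the same order. The order of the culture means was cancer mono-culture (11.75 ± 0.62), macrophage co-culture (9.79 ± 0.73), cancer co-culture (9.58 ± 1.10) and macrophage mono-culture (8.57 ± 0.16, all SD, n = 5). The co-cultured populations, neighbours in this order, did not differ beyond their spread, and the cancer co-culture overlapped the macrophage mono-culture through CMT-U27. Cancer cells minus macrophages, the level differed by 3.18 ± 0.52 in mono-culture and by -0.21 ± 0.56 in co-culture (SD, n = 5), and in 4 of 5 co-cultures the sorted macrophages had the higher SLC5A3 level. CMT-W1 was the exception, with the sorted cancer cells higher by 0.78. Without CMT-U27 and CMT-W2 the differences were 3.48 ± 0.25 and -0.01 ± 0.68 (SD, n = 3).

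This closing of the gap was common among genes with a like difference at the start. Of the genes measured in all 10 pairs, 511 had a mono-culture gap within 0.5 of that of SLC5A3. Their median gap in co-culture was -0.02, with quartiles of -0.39 and 0.25, so SLC5A3 lay inside the middle of them. The SLC5A3 level of the sorted macrophages was between the levels of both mono-cultures in 5 of 5 co-cultures, and that of the sorted cancer cells in 4 of 5. In CMT-U27, the co-culture with the most macrophage marker signal among its sorted cancer cells, the level of the sorted cancer cells minus that of the mono-cultured macrophages was -0.33.

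**Figure D2:**
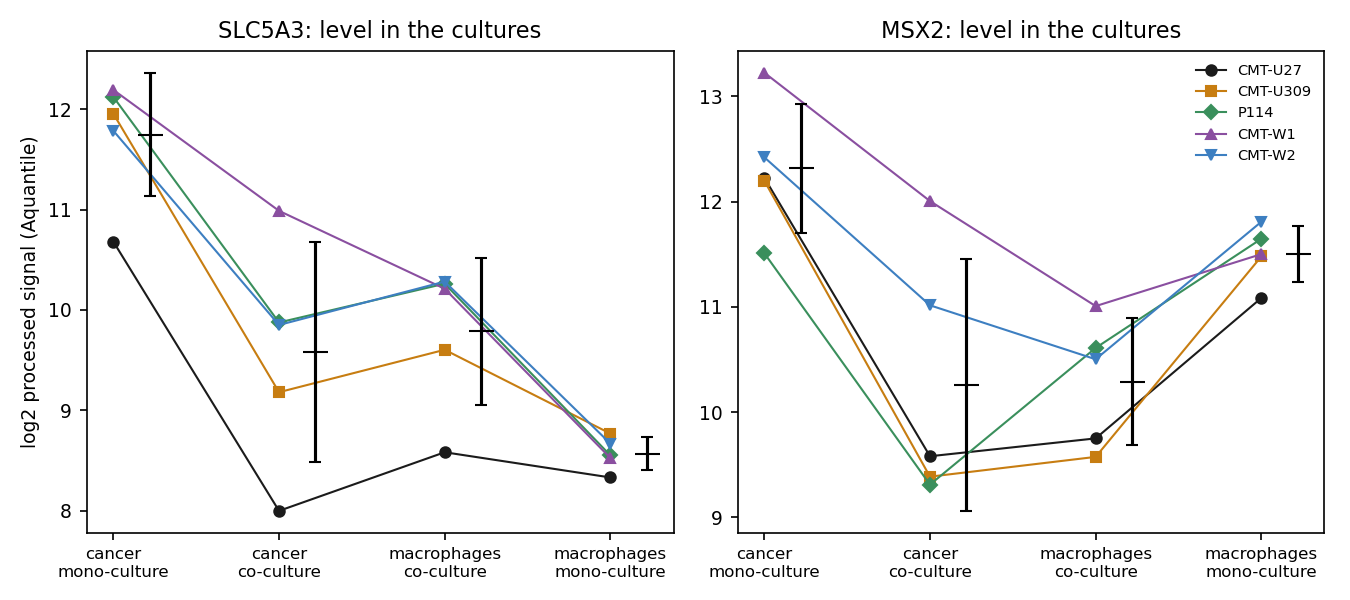
Level (log2 processed signal after Aquantile normalization) of SLC5A3 (left) and MSX2 (right) in the 4 cultures of each co-culture, with each panel on its own axis. Lines join the values of 1 co-culture, and black bars give the mean and SD over the 5. The SLC5A3 levels of the sorted populations lie mostly between the mono-cultures, whereas most MSX2 levels after co-culture lie below both.

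MSX2 started from a smaller difference between the cell types. In cancer mono-culture it was at 11.51 in P114, 12.20 in CMT-U309, 12.23 in CMT-U27, 12.42 in CMT-W2 and 13.22 in CMT-W1. The middle 3 lay within 0.22 of each other, while P114 and CMT-W1 stood at the ends of a 3.28-fold range. In macrophage mono-culture MSX2 was between 11.08 and 11.81, so P114 lay below its macrophages, with a difference of -0.14, and the other 4 lines lay above theirs.

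After co-culture MSX2 lay below both starting levels in most cases. In the sorted cancer cells the level was 9.58 in CMT-U27, 9.39 in CMT-U309, 9.31 in P114, 12.004 in CMT-W1 and 11.01 in CMT-W2. In the sorted macrophages it was 9.75, 9.57, 10.61, 11.01 and 10.50. The sorted macrophages were below both mono-cultures in 5 of 5 co-cultures and the sorted cancer cells in 4 of 5, with CMT-W1, at 0.50 above its mono-cultured macrophages, as the exception. Among 19456 genes measured in all 10 pairs, 16.6% were below both mono-cultures in at least 4 of 5 sorted cancer cell samples, 5.66% in all 5 sorted macrophage samples and 4.58% in both ways. The order of the means was cancer mono-culture (12.32 ± 0.61), macrophage mono-culture (11.50 ± 0.27), macrophage co-culture (10.29 ± 0.61) and cancer co-culture (10.26 ± 1.20, all SD, n = 5). The last 2 did not differ beyond their spread. Their difference, cancer cells minus macrophages, was -0.03 ± 0.87 and ran from -1.30 in P114 to 0.998 in CMT-W1. Without CMT-U27 and CMT-W2 it was -0.16 ± 1.15 (SD, n = 3), and the sorted macrophages were below both mono-cultures in 3 of 3 co-cultures and the sorted cancer cells in 2 of 3.

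Side by side, the 2 genes shared a direction in the cancer cells and parted in the macrophages. Of the 19456 genes measured in all pairs, 3403 (17.5%) were lower in each of the 5 cancer lines. Of these, 325 (9.55%) were higher in each of the 5 macrophage co-cultures, the pattern of SLC5A3, and 1666 (49.0%) were lower in each, the pattern of MSX2. The remaining 1412 were mixed in the macrophages. Among the 110 genes with a symbol that were lower in all 5 lines, SLC5A3 and MSX2 had the lowest mean ratios, followed by KLK1, a tissue kallikrein, at -1.97 and SLCO1B3, an organic anion transporter, at -1.92, which shows where the choice fell.

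**Figure D3:**
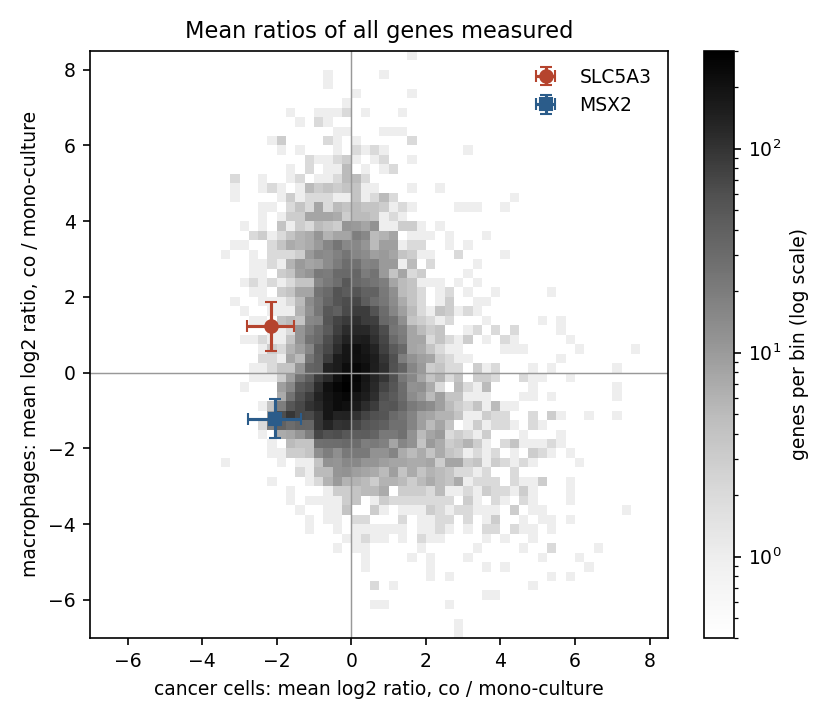
Mean log2 ratio (co-culture / mono-culture) in cancer cells (horizontal axis) and macrophages (vertical axis) for 19456 genes measured in all 10 dye-swap pairs, as the number of genes per square bin on a log grey scale. SLC5A3 and MSX2 are drawn with their SD over 5 co-cultures, at the low end of the cancer cell axis and on opposite sides of 0 on the macrophage axis.

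Few genes that work with SLC5A3 could be found by symbol, since only 1638 of 43603 probes had one matched. Of 39 genes for osmolyte handling, inositol metabolism, the SLC5 family and partner channels, 7 were matched and 5 were tested. In the cancer cells none of the 5 was called, beside 6.52% of all genes called raised and 6.94% called lowered. With only 5 genes tested, nothing is read from this count. Their median log2 ratio was -0.27, beside -0.03 over all genes tested. In the macrophages 1 of 5 was called lowered, beside 28.1% of all genes, and 4 were not called, with a median of 0.33 beside -0.17. SLC6A12, the betaine transporter and another osmolyte carrier, had -0.27 ± 0.55 in the cancer cells and 0.36 ± 2.13 in the macrophages (SD, n = 5). INPP5A, which removes a phosphate from inositol trisphosphate, had -0.08 ± 0.64 and 0.33 ± 0.64. Between the co-cultures SLC6A12 in the macrophages ran from -1.49 to 3.798, a wider span than that of SLC5A3.

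The called gene was SLC5A2, the kidney glucose transporter of the same family, which fell in the macrophages, at -1.40 ± 1.27 on the log2 scale (SD, n = 5, limma adjusted p = 0.0355). Its call was weak. Without CMT-W1 the mean shrank to -0.85, with an SD of 0.36, and the call was kept (adjusted p = 0.0211, limma). Arrays with the co-culture in Cy5 alone gave -0.54 while those with it in Cy3 gave -2.27. The second SLC5A2 probe gave -0.65 ± 0.54 with an adjusted p of 0.0764 from limma, and the call was lost under 11 of 19 alternatives, among them the one without CMT-U27 and CMT-W2 (adjusted p = 0.103, limma). SLC5A1, the intestinal glucose transporter, and KCNE2, a potassium channel subunit, were too dim to be tested in either cell type.

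Of 52 genes for the bone morphogenetic protein pathway and MSX2 partners, 6 were matched. All 6 were tested in the cancer cells, where 2 were called lowered and 4 were not called, beside 6.94% of all genes called lowered. Their median log2 ratio was -0.55, beside -0.03 over all genes. In the macrophages 5 were tested, of which 1 was raised and 1 lowered, beside 21.2% and 28.1% of all genes, with a median of 0.20 beside -0.17. No gene of the list was called in both cell types, but only 5 were tested in both. The share of all genes called in both is not given here, so nothing is read from this.

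Among the ligands, BMP7 fell in the cancer cells, at -1.76 ± 0.50 on the log2 scale (SD, n = 4, limma adjusted p = 0.0167), over 4 lines because an outlier spot removed CMT-U309. Its 3 probes gave -1.71, -1.76 and -1.97, each with an adjusted p under 0.05 from limma. In the macrophages BMP7 had 0.38 ± 1.75 (SD, n = 5). The BMP7 call was lost under 7 of 17 alternatives. With normexp and median centring the log2 ratio was -0.72 (adjusted p = 0.0852, limma) and with normexp and loess -1.18 (0.0676). It was also lost without CMT-U27 (0.0522), P114 (0.0571) or CMT-W2 (0.0511), in a fit of both cell types together (0.0551, all limma) and in the methods' t-test, where the adjusted p was 0.59.

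The receptor BMPR1A was not well above background on any of 10 macrophage mono-culture arrays and was so on 6 of 10 co-culture arrays. Against the dimmest mono-culture signal that still counted as well above background, the co-culture mean was at least 1.53-fold higher with the deposited signals. With normexp the log2 ratio was only 0.40 (loess) or 0.32 (median centring), which is under that bound, and it was not called. BMPR1A entered the test through its co-culture arrays alone, so the single raised call of the list supports nothing. The other type I receptor matched, BMPR1B, was not called in either cell type, at -0.17 ± 0.62 (SD, n = 4) in the cancer cells and 0.20 ± 0.36 (SD, n = 5) in the macrophages. ID3, a classical target of the pathway, fell in the macrophages, as MSX2 did, with -1.41 ± 1.09 (SD, n = 5, adjusted p = 0.0223 from limma), and had -0.30 ± 1.35 in the cancer cells. The ID3 call was lost without CMT-U27, with an adjusted p of 0.0602 from limma, without P114 (0.064), and without both CMT-U27 and CMT-W2 (0.122).

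ALPL, the tissue-nonspecific alkaline phosphatase of bone and of the mammary gland, fell in the cancer cells, with -1.17 ± 0.61 (SD, n = 5, adjusted p = 0.0332 from limma). In the macrophages it had -0.62 ± 0.41 and was not called (adjusted p = 0.0637 from limma). Only the brightest of its 4 probes could be tested, and 10 of 19 alternatives lost the call, among them those that left out any single line other than CMT-W2 (adjusted p from 0.0541 to 0.093, limma) or both CMT-U27 and CMT-W2 (0.0987). PTH1R, the receptor of parathyroid hormone-related protein, had 0.09 ± 0.82 in the cancer cells and was too dim to be tested in the macrophages.

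The genes whose levels ran most like those of SLC5A3 over the 20 cultures were found among 587 other genes with a symbol that were well above background in at least 10 of them. These correlations are a description, since the cultures share arrays, cell lines and possibly macrophages. The ratios of these genes come from the same arrays, so their likeness to SLC5A3 or MSX2 is largely set by the choice. The highest Pearson correlations were with HMGA1, a chromatin protein (r = 0.84), SNAP91, a clathrin adaptor (0.82), ANXA4, an annexin (0.80), the transcription factor MYC (0.79) and AK1, an adenylate kinase (0.78). Like SLC5A3, all 5 had a higher mean level in cancer than in macrophage mono-culture, a negative mean ratio in the cancer cells and a positive one in the macrophages. For MYC the mean log2 ratios were -1.03 ± 0.91 and 4.58 ± 0.58 (SD, n = 5).

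The most opposite genes were IL1A, a cytokine (r = -0.97), CTSS, a lysosomal protease (-0.96), TLR2 (-0.96) and TLR4 (-0.95), receptors for bacterial products, and FCGR1A, which encodes CD64 (-0.95). All but IL1A, 4 of 5, belong to the macrophage marker list. Over the 20 cultures, low SLC5A3 levels thus went with high levels of these markers.

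MSX2 ran with other genes. Its closest were HCRT, the orexin precursor (r = 0.95), RPPH1, the RNA subunit of ribonuclease P (0.95), BDKRB2, a bradykinin receptor (0.91), HTR1A, a serotonin receptor (0.90), and TAS2R41, a bitter taste receptor (0.90). All 5 had negative mean ratios in both cell types, which choosing them by these levels favours. For RPPH1 they were -1.78 ± 0.51 in the cancer cells and -1.62 ± 0.52 in the macrophages (SD, n = 5). The most opposite were SELENOT, a selenoprotein (-0.91), MDM2, the p53 ubiquitin ligase (-0.87), ICAM1, an adhesion molecule (-0.83), BIRC3, an inhibitor of apoptosis (-0.81), and SEC61B, a translocon subunit (-0.81), none of them in the macrophage marker list. The correlation between SLC5A3 and MSX2 themselves was 0.54. HCRT had mean levels of 14.43 and 13.06 in cancer mono-culture and co-culture, and of 13.92 and 13.22 in macrophages. Whether the signals of the MSX2 probe itself and of the probes closest to it came from the named genes was not tested. Many genes fell in both cell types as MSX2 did. In square bins of the mean ratios, the bin of MSX2, starting at -2.25 (cancer cells) and -1.25 (macrophages), held 9 genes. Those starting at -2 and -1.75, with the same macrophage start, held 61 and 96.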

How the data were processed

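SLC5A3 and MSX2, the gene lists and the comparisons were chosen with earlier results of these arrays known. The authors scanned the two-colour Agilent canine arrays and extracted them with Agilent Feature Extraction 10.7.3.1, per the file headers. The deposited log10 ratios of red (Cy5) over green (Cy3) signal were turned to co-culture over mono-culture by the dyes in the labels and multiplied to the log2 scale. The deposited processed signal intensities, background-subtracted and dye-normalized by the authors' software, gave levels after Aquantile normalization (limma). The deposited series table holds log10 ratios already turned, within 1.7e-05 of these once on the log2 scale, and was used as an alternative. Spots marked as outliers were left out, 6 to 9870 on the cancer cell arrays and 9 to 32 on the macrophage arrays. Of 43603 probes, 1638 had a symbol (1037 symbols) through RefSeq accessions (annotation UU_Cfam_GSD_1.0). The brightest probe stood for a gene, which was tested when well above background on both arrays in at least 3 of 5 co-cultures. limma 3.58.1 (R 4.3.3, lmFit and eBayes) tested the mean of the 5 dye-swap means against 0, with Benjamini-Hochberg adjustment over 23086 genes in cancer cells and 24226 in macrophages and a threshold of 0.05. The dye-swap arrays correlated at 0.736 (cancer cells of CMT-W1) to 0.958. The fit was tested on simulated data. Precision is limited by the number of arrays. Genes named are SLC5A3, MSX2, called list genes, markers and, for likeness, the 5 highest and 5 lowest correlations of each; other list genes, KLK1 and SLCO1B3 were named after their values were seen. The alternatives were other background corrections and scalings, filters, probes, dyes, blocks, tests and each co-culture left out.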

Additional observations from a re-analysis of the deposited data

Results flagged for a closer look

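SLC5A3 changed in opposite directions in the cell types: its log2 ratio was below 0 in 5 of 5 cancer lines and above 0 in 5 of 5 macrophage co-cultures, and the mean in macrophages was 3.39 higher than in cancer cells. The difference was not tested, since the cancer cell ratios had chosen the gene.

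The SLC5A3 level of CMT-U27 in mono-culture stood apart from the other 4 cancer lines. It was 10.68 against 11.79 to 12.19, and its gap to the nearest line was 0.731 of the whole range. Of 12 sets of 5 values looked at in this way, this was the 1 that passed the critical value of 0.71, and chance alone marks about 1 set in 20.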

How the results depend on the processing

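In the macrophages SLC5A3 stayed raised and past the threshold under all 19 alternatives, with log2 ratios from 0.85 to 1.46 and adjusted p from 0.00385 to 0.0429 (limma, or the methods' t-test). MSX2 stayed lowered under all 19, from -1.40 to -0.77 (adjusted p from 0.0029 to 0.0924), and lost the threshold with the 3 co-cultures other than CMT-U27 and CMT-W2 alone, a choice made after seeing the data (-1.14). Several alternatives left both ratios as they were and could move only the adjusted p. Among them were the series table values, kept outlier spots, other filters, single probes, the joint fit and the methods' t-test. Leaving out 1 co-culture gave 1.10 to 1.46 for SLC5A3 and -1.40 to -1.04 for MSX2. In the cancer cells the ratio of SLC5A3 shrank to -1.47 with normexp and loess and to -1.08 with normexp and median centring, and that of MSX2 to -1.11 with median centring, with no change of direction; the cause was not tested. The median of all macrophage genes was -0.17 with the deposited ratios and 0.00292 after loess, and relative to it SLC5A3 was at 1.39 and 0.85, MSX2 at -1.04 and -0.92. In the cancer cells it was -0.0349, and 0.197 after median centring.

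The count of genes called in the cancer cells, 3108, was 57 with normexp and loess, 1803 with no filter on dim probes, 1962 with the co-culture in Cy5 only, 7438 with slide as a random block, 7 with the methods' t-test (867 at an unadjusted p under 0.01), 158 with the 3 co-cultures alone, and 588 to 2460 with 1 co-culture left out. It was 588 without P114, 967 without CMT-U27, 1649 without CMT-U309 and 1747 without CMT-W2. In the macrophages the count, 11954, was 6561 with median centring and 5262 with the 3 co-cultures. The methods' t-test gave 10818 there, 8925 of them at an unadjusted p under 0.01.

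The labels number the arrays of a dye swap as biological replicates, and the number follows the dye on all cancer cell pairs and 4 of 5 macrophage pairs. Differences between the arrays of a pair correlated at 0.168 to 0.301 between cancer lines and at -0.305 to 0.527 between macrophage co-cultures. In another limma fit the arrays of a pair entered singly, with the replicate number as a covariate. The co-culture was the block, with a correlation shared by all genes. SLC5A3 was then at 1.22 (adjusted p = 0.00385) and MSX2 at -1.21 (adjusted p = 0.0029, both limma) in the macrophages. In the cancer cells they were at -2.17 and -2.06. The genes called were 4376 in cancer cells and 11556 in macrophages. The list genes were run under the same alternatives after the data were seen: none changed direction, and calls were kept under 10 of 17 for BMP7, 9 of 19 for ALPL, 8 of 19 for SLC5A2, 11 of 14 for BMPR1A and 13 of 19 for ID3.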
